A study of Mus musculus with 12 samples.

Results

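The genes that switch off light-activated opsin, and related beta-arrestin genes, were followed through retinas with and without *Otx2*. They were rod arrestin (*Sag*), cone arrestin (*Arr3*) and rhodopsin kinase (*Grk1*), called here the visual members, and the beta-arrestins *Arrb1* and *Arrb2*, called the ubiquitous members. Every probe set annotated with 1 gene symbol among these 5 was taken. The rule gave 8 probe sets, 5 for the visual and 3 for the ubiquitous members, out of 34945 probe sets of the array with 1 symbol, which name 18193 genes. Retinal RNA was hybridised to 12 arrays of 1 design, at postnatal day 1 (P1) and postnatal day 12 (P12), with 3 arrays for each genotype at each age. The *Otx2* CKO retinas were *Otx2* flox/flox with Crx-Cre (Crx-Cre+), and the control retinas were *Otx2* flox/flox without it (Crx-Cre-). All 12 samples therefore carried the floxed *Otx2* alleles, and the Crx promoter that drives Cre is active in developing photoreceptors. RNA of the whole retina was measured, so fewer cells of a type and less RNA per cell cannot be told apart.

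In rods and cones, an opsin that has caught light stays active until it is phosphorylated by a G protein-coupled receptor kinase and capped by an arrestin. *Grk1* encodes the kinase of mouse rods and cones, *Sag* encodes the arrestin that is abundant in rods, and *Arr3* encodes the arrestin of cones. *Arrb1* and *Arrb2* encode beta-arrestins, which bind many phosphorylated receptors outside the visual cascade, stop their G protein signalling and link them to clathrin-coated pits. Otx2 is a homeodomain factor needed for photoreceptors to form, and Crx is its close relative in photoreceptors.

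The region around the start of each visual gene is shown first because *Otx2* was the gene removed. RefSeq windows (GRCm38.p6, 250 bases before to 50 bases after the start of 1 listed transcript) matched 3 of the 5 genes, *Sag*, *Arr3* and *Grk1*. Each is on the plus strand and printed 5′ to 3′. The capitals mark TAATC on either strand, the core of the TAATCC sequence preferred by Otx and Crx homeodomains, and TGCTGA on either strand, a half-site of Maf-family factors such as Nrl. On the reverse strand these read GATTA and TCAGCA.
Sag, chr1:87803430-87803729: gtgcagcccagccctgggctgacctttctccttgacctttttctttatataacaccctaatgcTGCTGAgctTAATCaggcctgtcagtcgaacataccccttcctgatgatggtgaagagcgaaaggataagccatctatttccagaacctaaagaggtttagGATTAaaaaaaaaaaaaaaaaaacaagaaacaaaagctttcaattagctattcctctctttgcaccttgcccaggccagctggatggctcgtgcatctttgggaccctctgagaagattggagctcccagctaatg
Arr3, chrX:100605247-100605546: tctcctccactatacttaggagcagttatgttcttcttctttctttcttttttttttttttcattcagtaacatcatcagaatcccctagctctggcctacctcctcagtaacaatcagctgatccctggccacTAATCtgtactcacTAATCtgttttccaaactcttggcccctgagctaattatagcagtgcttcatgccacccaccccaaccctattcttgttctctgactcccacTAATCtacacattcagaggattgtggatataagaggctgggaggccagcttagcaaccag
Grk1, chr8:13404831-13405130: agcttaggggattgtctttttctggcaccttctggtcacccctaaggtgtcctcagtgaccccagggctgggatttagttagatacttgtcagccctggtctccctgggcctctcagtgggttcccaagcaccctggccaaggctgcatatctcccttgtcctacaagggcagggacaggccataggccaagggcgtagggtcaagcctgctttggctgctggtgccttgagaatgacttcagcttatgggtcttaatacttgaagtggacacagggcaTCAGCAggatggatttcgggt
The *Sag* window held 2 copies of TAATC, 178 and 86 bases before the start, and the nearer copy lay within TAATCC on the reverse strand. It also held 1 TGCTGA, 187 bases before the start. The *Arr3* window held 3 copies of TAATC, 116, 102 and 10 bases before the start, but neither TAATCC nor TGCTGA. The *Grk1* window held no TAATC and 1 TGCTGA on the reverse strand, in the bases after the start. Over 32817 promoter windows of the same length, 22.0% held TAATC, 7.06% held TAATCC, 19.5% held TGCTGA and 0.658% held 3 or more copies of TAATC. These are matches of letters and not measured binding sites. The genes lie at chr1:87798143-87845158 (*Sag*), chrX:100605480-100618493 (*Arr3*), chr8:13405081-13421951 (*Grk1*), chr7:99535147-99606772 (*Arrb1*) and chr11:70432485-70440828 (*Arrb2*) in GRCm38.p6. The start used in the window lies 5537 bases inside the *Sag* gene as annotated, 17 bases inside *Arr3*, and at the first base of *Grk1*.

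Signals are linear intensities as deposited and were not rescaled. The mean of each array without its 2% highest and 2% lowest values averaged 25.0 ± 3.04 in P1 CKO and 29.2 ± 0.843 in P1 control, and 129.8 ± 36.2 in P12 CKO and 101.6 ± 8.21 in P12 control (SD, n = 3 each). The P12 arrays were thus brighter than the P1 arrays, and P12 CKO replicate 1 was the brightest at 171.6. *Otx2* itself gave 245.0, 166.8 and 107.9 in P12 CKO and 1057.7, 1047.7 and 802.9 in P12 control (log2 change -2.44, limma adjusted p = 6.96e-05). At P1 it gave 143.8, 107.8 and 154.0 in the CKO and 376.0, 358.0 and 282.9 in the control (log2 change -1.23, adjusted p = 0.207, and 0.0346 when the fit was blocked on the experiment number). Whether the probes lie in the deleted part of *Otx2* was not examined. Of the tested marker genes of retinal cells at P12, 8 of 8 rod and cone, 3 of 4 bipolar and 2 of 3 horizontal cell markers fell in CKO retinas, and 8 of 8 microglia and macrophage, 3 of 7 amacrine and 3 of 6 Müller glia markers rose, where 4.54% of all 21390 tested probe sets were lower and 14.1% higher. Of 4 ganglion cell markers 1 fell and 1 rose, 1 of 3 blood vessel and 1 of 4 pigment epithelium markers rose, and the red blood cell and lens markers had too little signal to be tested. By mean signal at P12, the remaining tested bipolar marker, *Prkca*, was lower in the CKO (314.5 against 667.7 in the control). The remaining tested horizontal cell marker, *Prox1*, was higher (503.1 against 172.0), and neither was called. Of those with too little signal to be tested, the bipolar *Trpm1* and *Grik1* were slightly higher on average (40.6 and 31.9 against 35.9 and 27.0). The horizontal *Onecut1*, also untested, was lower (6.7 against 22.2).

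*Sag* was the only visual member above the signal limit of the test at P1, a group mean of 50, and it was already reduced in *Otx2* CKO retinas. Its signals at P1 were 14.5, 4.7 and 18.0 in the CKO and 209.8, 163.9 and 175.0 in the control. The highest CKO array lay far below the lowest control array. The CKO mean was 6.78% of the control mean, or 14.8-fold lower, with CKO signals near the medians of their arrays (5.1 to 7.9), so this share is approximate. On the scale log2(signal + 16), which is used for every log2 change given here and understates changes of low signals, the change was -2.83 (SE 0.29, 95% interval -3.45 to -2.21, limma adjusted p = 0.00168). Of 8384 probe sets tested at P1, 15 were lower at an adjusted p below 0.05, which is 0.179%, and none was higher (139 were lower and 6 higher at an unadjusted p below 0.05). Blocking on the experiment number over the 12 arrays and within each age gave 29 and 74 calls. Arrays of the CKO all lay below those of the control for 22% of the tested probe sets. *Sag* kept its call at P1 in all 19 other settings, with changes of -3.94 to -1.90.

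At P12 *Sag* stood at 764.8, 1040.3 and 453.9 in the CKO and at 8206.8, 8687.5 and 8024.2 in the control. The control arrays were close together, the CKO arrays were spread more widely, and the groups did not overlap. The CKO mean was 9.07% of the control mean, 11.0-fold lower, with a log2 change of -3.51 (SE 0.29, adjusted p = 4.70e-06). At this age 4.54% of 21390 tested probe sets were lower and 14.1% were higher, and arrays of the CKO lay wholly below the control for 5.41% and wholly above it for 20.8%. The higher calls were 75.7% of all calls as deposited and 42.1% to 50.5% after 5 scalings of the arrays, and blocking within each age gave 9309 calls in place of 3990. Over the 5 scalings tried, the *Sag* change was -3.91 to -3.70.

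The 4 groups had *Sag* levels in the order P1 CKO, P1 control, P12 CKO and P12 control, and no group overlapped its neighbour in signal. Divided by the trimmed mean of its array, *Sag* was 4.46, 9.63 and 4.14 in P12 CKO, against 7.26, 5.74 and 5.80 in P1 control. The P12 CKO retinas therefore overlapped the newborn controls on that scale. The same ratio was 85.1, 78.2 and 82.4 in P12 control, and 0.520, 0.215 and 0.713 in P1 CKO. These ratios are descriptions, and P12 CKO was not tested against P1 control.

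*Arr3* was near the bottom of the scale in every P1 retina and was strongly reduced in the CKO at P12 on 2 of its 3 probe sets. Probe set 1450329_a_at gave 35.1, 16.9 and 7.9 in P12 CKO and 289.0, 501.5 and 275.1 in P12 control. Every CKO array was far below every control array. The log2 change was -3.39 (SE 0.29, adjusted p = 8.19e-06). Probe set 1425232_x_at gave 21.1, 8.9 and 8.7 in P12 CKO and 224.6, 188.7 and 123.4 in P12 control. Again the groups were well apart, with a log2 change of -2.74 (SE 0.25, adjusted p = 1.04e-05). All P12 CKO signals of the *Arr3* probe sets lay below the medians of their arrays (25.4 to 56.0), so no share of the control level is given.

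The other *Arr3* probe set, 1441144_at, showed a smaller difference. It gave 40.3, 22.3 and 20.2 in P12 CKO and 119.0, 52.2 and 43.2 in P12 control. The groups did not overlap, but the brightest CKO array came within a few units of the dimmest control array. The log2 change was -0.93 (SE 0.30, 95% interval -1.58 to -0.29, adjusted p = 0.0445). This call was lost in 5 of 17 other settings, where the adjusted p reached 0.274: an offset of 1, no filter, P12 fitted alone, and leaving out P12 CKO replicate 2 or replicate 3 (adjusted p = 0.0797 and 0.118). At P1 the 3 *Arr3* probe sets ranged from 0.3 to 4.8 in the CKO and from 0.4 to 5.6 in the control, overlapped, and were not tested because no group mean reached 50.

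*Grk1*, the kinase, was close to zero at P1 and fell in the CKO at P12. Its signals were 2.3, 11.7 and 1.2 in P12 CKO and 93.2, 184.3 and 144.3 in P12 control. The highest CKO array was P12 CKO replicate 2, still far below every control. The log2 change was -2.88 (SE 0.26, adjusted p = 1.04e-05), and the CKO signals again lay below the medians of their arrays. At P1 it gave 0.4, 0.3 and 0.2 in the CKO and 2.0, 0.2 and 0.3 in the control. These values are all at the floor of the array, overlap, and were not tested.

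**Figure D1:**
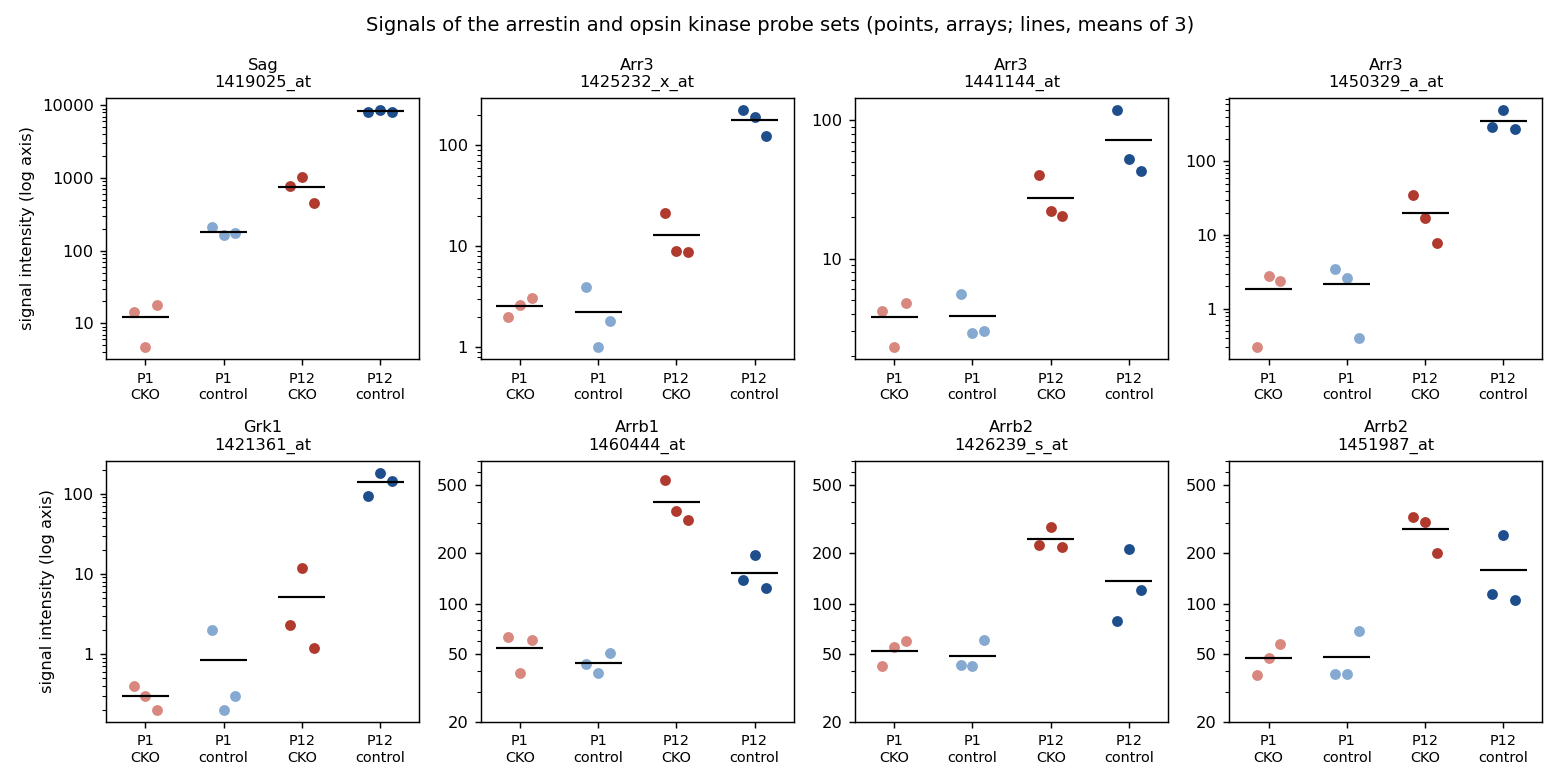
Signal intensity of each probe set on a log axis, by group, with 1 point per array and a line at the mean of 3. *Sag*, *Arr3* and *Grk1* were lower in P12 CKO than in P12 control on every array, and *Arrb1* was higher (313.0 to 539.0 against 123.1 to 193.0).

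All 5 visual probe sets therefore fell at P12. Beside them, the summed signal of 9 rod and cone markers was 470.5 to 1322 in P12 CKO and 19994 to 31969 in P12 control. At P1 the same sum was 22.4 to 91.9 in the CKO and 625.7 to 1092 in the control, and 4 of 5 tested markers fell, where 0.179% of all tested probe sets were lower. How far the number of photoreceptors accounts for the levels of *Sag*, *Arr3* and *Grk1* was not tested.

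*Arrb1* moved the other way at P12. It gave 539.0, 351.5 and 313.0 in P12 CKO and 137.8, 193.0 and 123.1 in P12 control. The lowest CKO array was above the highest control array. The CKO mean was 2.65-fold the control mean, and the log2 change was 1.30 (SE 0.26, 95% interval 0.74 to 1.87, adjusted p = 0.00472). The median change of all tested probe sets at P12 was 0.39, and that of *Arrb1* was larger. After each of the 5 scalings, which brought that median to between 0.06 and 0.11, *Arrb1* was still higher by 0.94 to 0.98 and passed the test. With P12 fitted alone its adjusted p was 0.0793.

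*Arrb2* was higher on average in P12 CKO, but neither of its probe sets passed the test in the main fit, which held no block. Probe set 1426239_s_at gave 220.6, 283.0 and 215.3 in P12 CKO and 79.3, 210.8 and 119.9 in P12 control. All CKO arrays were above the control arrays, by a small margin over control replicate 2. The log2 change was 0.83 (SE 0.29, 95% interval 0.20 to 1.46, adjusted p = 0.0668). Probe set 1451987_at gave 326.7, 304.9 and 199.6 in P12 CKO and 114.6, 254.8 and 105.1 in P12 control. Here CKO replicate 3 lay below control replicate 2, and the log2 change was 0.82 (SE 0.33, adjusted p = 0.0982).

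The call of *Arrb2* turned on 1 library and on the pairing. Without P12 control replicate 2 the adjusted p was 0.00535 and 0.00968 for 1426239_s_at and 1451987_at. Blocking on the experiment number over all 12 arrays gave 0.0293 for 1426239_s_at and 0.0603 for 1451987_at, and blocking within each age gave 0.00328 and 0.00358. After the 5 scalings the 2 changes were 0.48 to 0.54 and neither was called.

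At P1 neither ubiquitous member differed detectably between genotypes. *Arrb1* gave 63.8, 38.7 and 61.2 in P1 CKO and 44.1, 38.8 and 50.7 in P1 control, which overlapped (log2 change 0.21, 95% interval -0.37 to 0.78, adjusted p = 0.915). *Arrb2* probe set 1426239_s_at gave 42.8, 55.1 and 60.3 in P1 CKO and 43.1, 42.9 and 61.2 in P1 control (log2 change 0.08, 95% interval -0.56 to 0.72, adjusted p = 0.938). These intervals leave room for a modest change in either direction. After the 5 scalings the P1 change was 0.39 to 0.54 for *Arrb1* and 0.26 to 0.41 for 1426239_s_at, and neither was called. *Arrb2* probe set 1451987_at gave 37.6, 47.6 and 57.6 in P1 CKO and 38.3, 38.2 and 68.8 in P1 control, and was below the signal limit of the test.

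At P12, where *Arrb1* rose, the signals of some markers of other cells also differed. The summed signal of 8 microglia and macrophage markers was 2886 to 3955 in P12 CKO and 523.3 to 1045 in P12 control, with all 8 of them called higher. That of 8 amacrine markers was 5608 to 8694 in P12 CKO and 3383 to 4866 in P12 control, with 3 of 7 tested called higher. That of 6 Müller glia markers was 8682 to 12958 in P12 CKO and 5280 to 10425 in P12 control, with 3 of 6 called higher. The first 2 sums did not overlap between the genotypes, and the Müller glia sums did. Their part in the *Arrb1* and *Arrb2* levels was not tested.

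**Figure D2:**
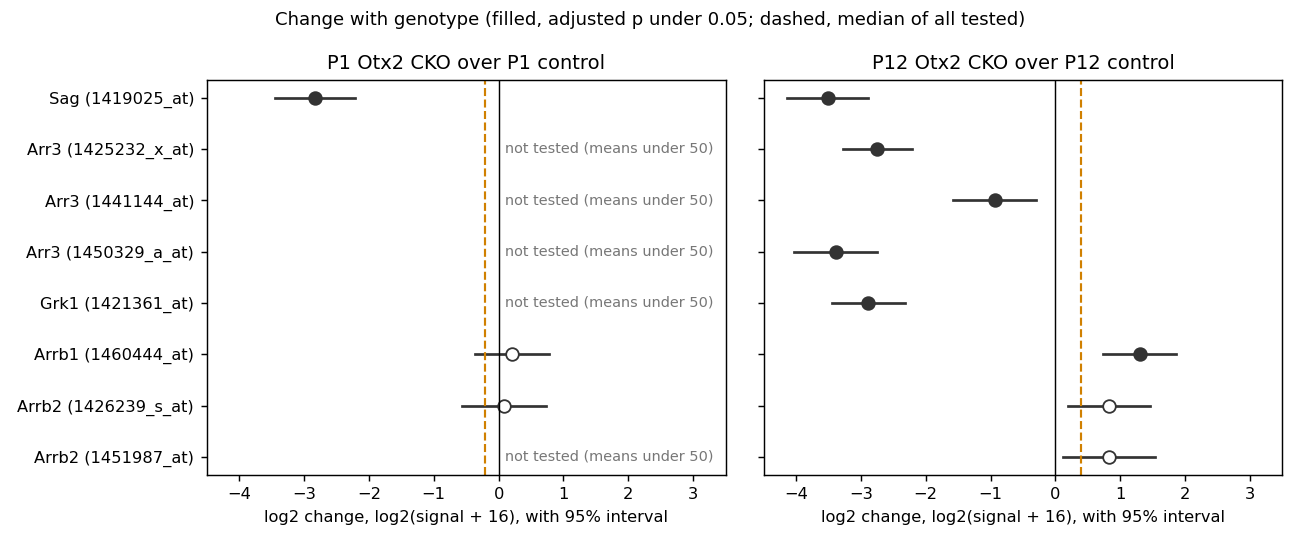
Log2 change of CKO over control with its 95% interval for each probe set at P1 (left) and P12 (right); filled points passed an adjusted p of 0.05 and the dashed line is the median of all tested probe sets. The 5 visual probe sets lie below zero at P12, from -3.51 to -0.93, and the 3 ubiquitous ones above it, from 0.82 to 1.30.

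The visual and ubiquitous members thus had changes of opposite sign at P12, and their intervals did not meet on any pair of probe sets. The genotype effect was also compared between the ages, by testing the P12 effect minus the P1 effect over 21530 probe sets, of which 4.87% differed (1.79% lower and 3.08% higher). Blocking over the 12 arrays gave 2409 such probe sets in place of 1049. No array of *Arr3* or *Grk1* exceeded 5.6 at P1, in the CKO or in the control, so a loss in the CKO could not be seen there and the difference between the ages repeats their P12 effect. For *Sag* the difference was -0.68 (SE 0.40, 95% interval -1.56 to 0.20, adjusted p = 0.305). It depended on the offset, at 0.40 with an offset of 1 and -1.55 with an offset of 50, where it passed the test (limma adjusted p = 0.0245). The *Arrb1* difference was 1.10 (SE 0.37, 95% interval 0.30 to 1.89, adjusted p = 0.102), and those of *Arrb2* were 0.74 and 0.82 (adjusted p = 0.274 and 0.282). Without P12 control replicate 2, *Arrb1* and *Arrb2* probe set 1426239_s_at passed this test, with differences of 1.27 and 1.08.

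Between the ages, every visual probe set rose in control retinas. At P12 against P1, *Sag* was 45.4-fold higher in the signals as deposited and 13.1-fold higher relative to the array trimmed mean (log2 change 5.39 as deposited, 3.53 to 5.51 over the 5 scalings). The 3 *Arr3* probe sets and *Grk1* changed by 2.04 to 4.31 on the log2 scale, and each was called in every other setting in which it was tested. Their P1 control means were 0.83 to 3.83, and they reached the signal limit of 50 only through P12 control. With such signals at P1 only a rise could be called, so these calls describe the P12 level and are no separate support. Of all 18560 probe sets tested, 82.7% were called higher with a median change of 1.45, and the changes of the 5 visual probe sets were each larger than that median. In CKO retinas *Sag* was 60.7-fold higher at P12 than at P1 as deposited and 12.6-fold higher relative to the array trimmed mean (log2 change 4.71 as deposited, adjusted p = 1.27e-07, 3.05 to 4.52 over the 5 scalings), against P1 CKO signals near the medians of their arrays. As deposited, 96.2% of 20638 probe sets were called higher between the CKO groups, with a median of 1.85. *Arr3* and *Grk1* reached a mean of 50 in neither CKO group and were not tested there.

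The ubiquitous members rose with age in the signals as deposited, but few or none of these calls were kept once the 12 arrays were scaled to a common level. *Arrb1* changed by 1.45 and the 2 *Arrb2* probe sets by 1.15 and 1.37 in the control, and by 2.55, 1.89 and 2.19 in the CKO, and all of these passed the test. With quantile, trimmed mean or median scaling of the 12 arrays none passed in either genotype (1 passed in each with scaling to the hybridization spikes). With the same 3 scalings the changes in the control turned to between -0.46 and -0.029. In the CKO *Arrb1* stayed above zero, at 0.45, 0.48 and 0.37 in that order (limma adjusted p = 0.112, 0.0761 and 0.411). There *Arrb2* probe set 1451987_at was at 0.14, 0.16 and 0.052, and 1426239_s_at was below zero, at -0.17, -0.14 and -0.25. Relative to the array trimmed mean, *Arrb1* was 3.14, 3.25 and 2.85 in P12 CKO, against 1.43, 1.74 and 1.26 in P12 control. The same ratio was 2.29, 1.77 and 2.42 in P1 CKO, against 1.53, 1.36 and 1.68 in P1 control. In that order of levels the P12 control and P1 control overlapped, and the P12 CKO stood above the other 3 groups. The P1 CKO arrays also lay above those of both control groups, so on this scale a higher level in the CKO was not particular to P12.

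**Figure D3:**
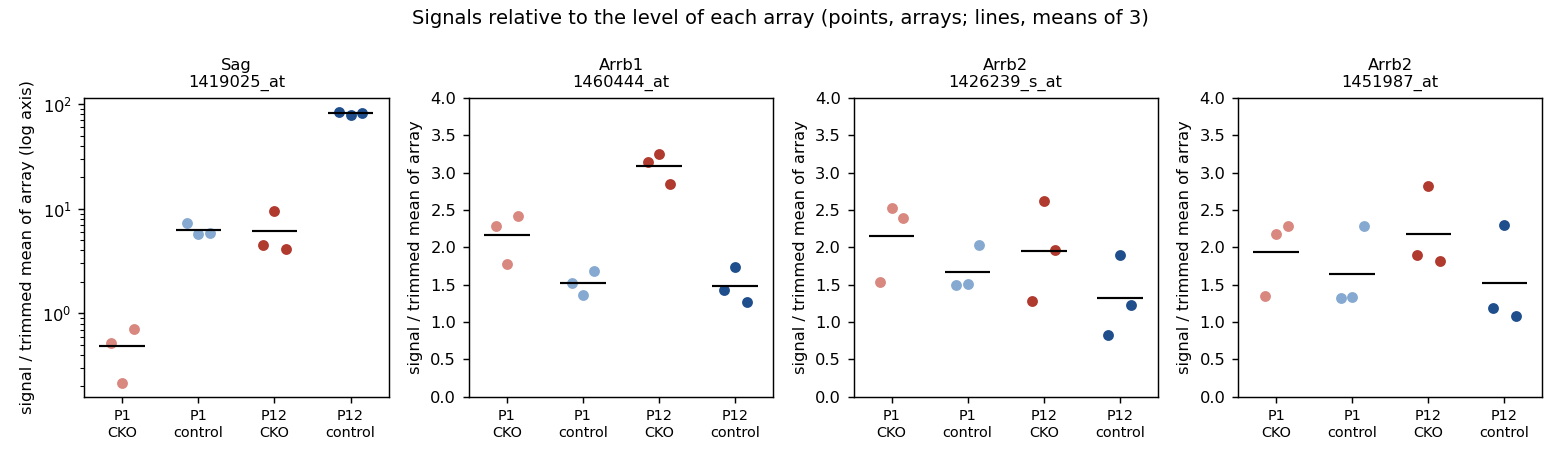
Signal divided by the trimmed mean of its array, by group, with 1 point per array and a line at the mean of 3; the *Sag* axis is a log axis and the others start at 0. *Sag* in P12 CKO (4.14 to 9.63) overlaps P1 control, and *Arrb1* in P12 CKO (2.85 to 3.25) lies above the other groups. *Arrb1* in P1 CKO (1.77 to 2.42) lies above both control groups.

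The neighbours of the visual members in the shut-off pathway fell as well. At P12, both opsins tested, the substrates of the kinase, were lower in the CKO (4.54% of all tested probe sets were). *Opn1mw*, the medium-wavelength cone opsin, fell to a signal below or near the array medians (22.1 ± 5.57 in CKO and 847.4 ± 478.9 in control, SD, n = 3, log2 change -4.38, adjusted p = 1.49e-06). *Opn1sw*, the short-wavelength cone opsin, was at 4.89% of control (log2 change -4.13, adjusted p = 9.43e-06), and it was the only gene of the pathway lists besides *Sag* that was called at P1 (log2 change -2.63, adjusted p = 0.00685). That P1 call of *Opn1sw* was lost without P1 CKO replicate 2, P1 control replicate 1 or P1 control replicate 2 (adjusted p = 0.0571, 0.0677 and 0.0579), and with an offset of 50 (adjusted p = 0.0720). Of 5 genes that regulate the kinase or transducin, 4 fell. Recoverin (*Rcvrn*), the calcium sensor that holds the kinase back, was at 4.14% of control (log2 change -4.54). *Rgs9bp*, the anchor of the transducin GTPase accelerator, changed by -4.22 on the log2 scale, phosducin (*Pdc*), which binds the transducin beta-gamma subunits, was at 9.85% (log2 change -3.44), and *Gnb5*, the partner of *Rgs9*, changed by -1.75. At P1 *Pdc* was called with a block on the experiment number (limma adjusted p = 0.000514 over the 12 arrays) or without P1 control replicate 3 (adjusted p = 0.00772), and not in the fit without a block over all arrays. *Rgs9* itself, the accelerator, did not pass on its brightest probe set, 1418691_at (log2 change 0.20, adjusted p = 0.681, and below zero under each scaling), whereas its other 2 probe sets fell (1439635_at and 1426033_at, log2 changes -2.22 and -1.55, adjusted p = 6.17e-05 and 0.000732). With P12 fitted alone, 1426033_at missed the threshold (adjusted p = 0.0594).

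In the wider arrestin and kinase families no gene fell at P12 by limma on its brightest probe set, nor at an unadjusted p below 0.05, where 14.1% of all tested probe sets were higher and 4.54% lower. Of 3 tested G protein-coupled receptor kinases other than *Grk1*, *Grk3* rose 2.32-fold (log2 change 1.11, adjusted p = 0.00903, called after 4 of the 5 scalings and not with P12 fitted alone, adjusted p = 0.113). Of 4 tested alpha arrestins, adaptor proteins related to the arrestins in fold, 3 rose. *Txnip*, which binds thioredoxin and restrains glucose uptake, was 678.5 ± 152.4 in P12 CKO and 132.2 ± 36.8 in P12 control (SD, n = 3, 5.13-fold, log2 change 2.24, adjusted p = 4.41e-05), and it was called in all 19 other settings, at 1.86 to 2.42. *Arrdc3* (log2 change 1.47, adjusted p = 0.0282) and *Arrdc4* (log2 change 0.74, adjusted p = 0.0203) were called after 2 and 0 of the 5 scalings. The *Arrdc3* call was lost without P12 CKO replicate 1, P12 control replicate 2 or P12 control replicate 3 (adjusted p = 0.0766, 0.0679 and 0.0597), and the *Arrdc4* call without P12 control replicate 3 (adjusted p = 0.0649) or with an offset of 1 (adjusted p = 0.0531). With P12 fitted alone neither was called (adjusted p = 0.145 and 0.290). The other *Arrdc4* probe set, 1426818_at, was 62.0 ± 21.2 in P12 CKO and 19.0 ± 7.82 in P12 control (SD, n = 3). It was called higher (log2 change 1.15, limma adjusted p = 0.00772), and its values in the other settings are not given here. The list of clathrin endocytosis partners of beta-arrestins held clathrin and adaptor genes together with *Arf6*, *Nsf*, *Dnm1*, *Dnm2* and *Mdm2*. Its 13 genes gave 0 calls by limma on the brightest probe set of each, and 0 at an unadjusted p below 0.05. Their median change was 0.30, beside 0.39 over all tested probe sets. Of the other probe sets of these genes, 2 fell, both of *Ap2a2*, a subunit of the clathrin adaptor (1432006_at and 1432007_s_at, log2 changes -1.40 and -1.72, adjusted p = 0.000968 and 0.000477), and both were called in all 19 other settings.

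**Figure D4:**
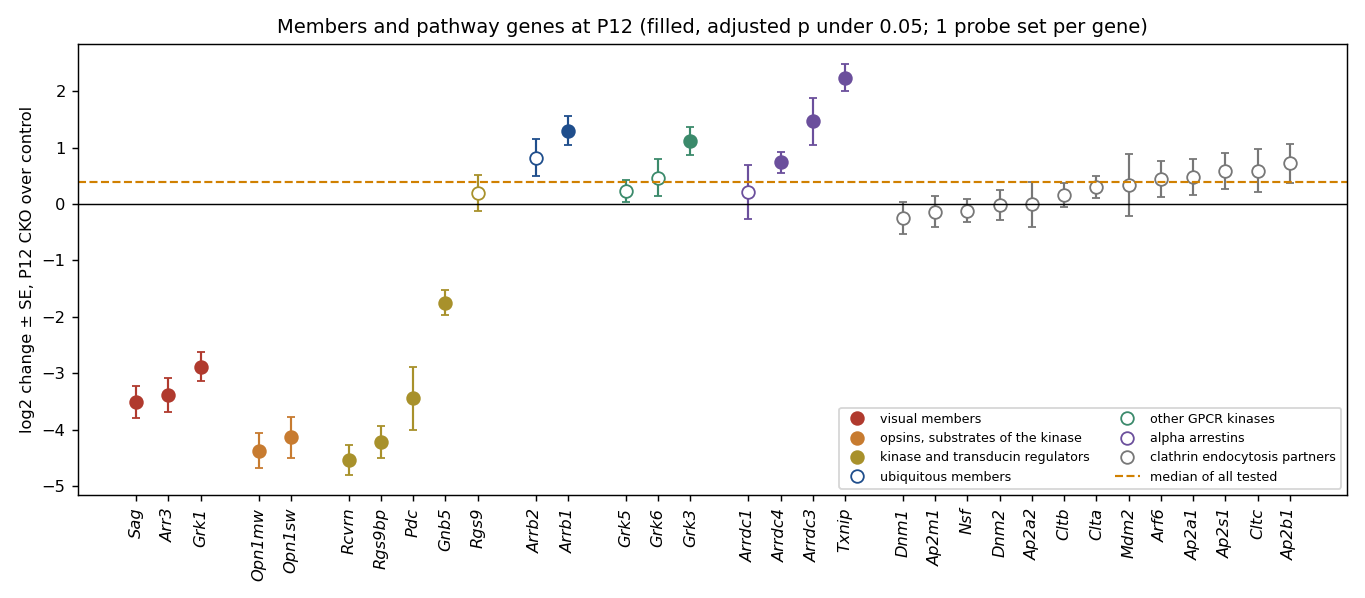
Log2 change of P12 CKO over P12 control with its SE for the members and the genes of each pathway list, 1 probe set per gene; filled points passed an adjusted p of 0.05 and the dashed line is the median of all tested probe sets, 0.39. *Sag*, *Arr3* and *Grk1* lie between -3.51 and -2.88, and *Arrb1* and *Txnip* lie at 1.30 and 2.24. No gene of the clathrin endocytosis list passed on the probe set shown, its brightest.

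The genes whose signals ran most like each member over the 12 arrays were picked by Pearson's correlation of log2(signal + 16) among 18796 to 18798 probe sets. For *Sag* they were *Doc2b* (r = 0.989), *Unc119*, a lipid-binding trafficking protein of photoreceptors (r = 0.985), and *Slc25a33* (r = 0.982). For *Arr3* they were *Susd3* (r = 0.996), the vesicular glutamate transporter *Slc17a7* (r = 0.996) and *Pcp2*, known from bipolar cells (r = 0.996). For *Grk1* they were *Bhlhe23*, a transcription factor of rod bipolar cells (r = 0.995), *Apobec2* (r = 0.993) and the retinol dehydrogenase *Rdh12* (r = 0.993). *Arrb1* ran closest to *Nuak1*, *Cotl1* and *Hpse* (each r = 0.995), and *Arrb2* to *Ywhah* (r = 0.992), *Pdia6* and the actin regulator *Cfl1* (both r = 0.991). All arrays share the ages and genotypes, so these values describe the 4 groups more than separate samples. After quantile normalization of the 12 arrays, an alternative chosen after seeing the data, 2 of the 3 genes stayed for *Sag* and for *Arr3*, and none stayed for *Grk1*, *Arrb1* or *Arrb2*.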

How the data were processed

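RNA from whole retinas was measured on 12 Affymetrix Mouse Genome 430 2.0 arrays, and the groups were taken from the sample titles. The titles, source names and genotype fields agree, whereas the description lines of a few samples give the opposite genotype. The authors deposited 1 linear signal intensity per probe set, made with GeneChip Operating Software 1.4; a scaling target is not given in the sources used here. Probe sets were named from the GEO platform annotation: 34945 had 1 symbol, 932 several and 9160 none. Of the 34945, 34741 matched a current Entrez gene. Member probe sets were selected by the symbol of that annotation, and Entrez IDs then set the current symbol. Arr3 is also among the older names of *Arrb2*. A suffix of _s_at or _x_at marks probes that may also match other transcripts.

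Signals as deposited were put on the scale log2(signal + 16) and fitted with limma 3.58.1 (R 4.3.3, lmFit and eBayes with trend), all 12 arrays in 1 model of 4 groups. A probe set was tested where a compared group averaged 50 or more, 64 control probe sets were left out, and p-values were adjusted over all probe sets tested (Benjamini-Hochberg, threshold 0.05). Log2 values correlated at 0.958 to 0.986 between P1 arrays of a group and at 0.884 to 0.965 between P12 arrays. The steps were tested on simulated data. The titles number the experiments 1 to 3. Deviations from the group means correlated between same-numbered arrays of the 2 genotypes at 0.173 to 0.327 at P1 and 0.540 to 0.881 at P12, so the number was taken as a pairing. The main fit and its p-values left this pairing out, and a block on it is given where it changes a call. Nothing in the labels names separate animals or pools, so p-values measure the spread between these arrays. The number of arrays limits the precision.

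Marker lists and pathway lists used the brightest probe set of each gene. Up to 3 genes per list with the largest change among those called were named, with *Gnb5* and *Rgs9* named to complete their list. Other probe sets of *Rgs9*, *Arrdc4* and *Ap2a2* were named after their values were seen. The 3 genes most like each member were chosen by Pearson's correlation. The members and lists were chosen with earlier results of these data known. The alternatives were other offsets, 5 scalings, other filters, eBayes without the trend, blocks, separate fits per age, a ratio criterion without a test, and leaving out each array. Promoter windows came from RefSeq (GRCm38.p6) and figures from matplotlib 3.10.9.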

Additional observations from a re-analysis of the deposited data

Results flagged for a closer look

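The test of the P12 genotype effect minus the P1 effect was passed by 3 probe sets of the visual members: -2.77 for *Arr3* probe set 1425232_x_at (limma adjusted p = 0.000618), -3.36 for *Arr3* probe set 1450329_a_at (adjusted p = 0.000577) and -2.84 for *Grk1* (adjusted p = 0.000721). At P1 these probe sets stood between 0.2 and 3.1 in CKO retinas and between 0.2 and 3.9 in control retinas. A loss in the CKO could not be seen at such signals, so the differences repeat the P12 changes of -2.74, -3.39 and -2.88.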

How the results depend on the processing

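The visual members kept 1 call at P1 in all 20 other settings. They had 4 or 5 calls at P12 and 3 or 4 for the difference between the ages. For *Arr3* and *Grk1* that difference repeats the P12 effect. The difference of *Sag* was called with an offset of 50 (-1.55, limma adjusted p = 0.0245). Without a signal filter, 4 visual probe sets were called between P12 CKO and P1 CKO, where 1 was called with it. The ubiquitous members, with 1 call at P12, had 2 with the replicate block, 3 with the replicate block within age, 0 with each age fitted alone, and 1 to 3 when single arrays were left out (3 without P12 control replicate 2). For the difference between the ages they had 0 calls, and 0 to 2 when single arrays were left out (2 without P12 control replicate 2). Between P12 and P1 their 3 calls in each genotype became 0 with quantile normalization of the 12 arrays, trimmed mean scaling or median scaling, and 1 with spike scaling. Beyond *Arrb2* at P12 and *Otx2* and *Pdc* at P1, the block changed no other call of the genes named here for the genotype effect at either age.

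Directions turned as follows. The *Sag* difference between the ages was 0.40 with an offset of 1. Under quantile normalization, trimmed mean and median scaling, in that order, P12 control against P1 control gave -0.19, -0.28 and -0.42 for *Otx2*, -0.029, -0.043 and -0.16 for *Arrb1*, -0.37, -0.35 and -0.46 for *Arrb2* probe set 1426239_s_at, and -0.14, -0.13 and -0.24 for *Arrb2* probe set 1451987_at. P12 CKO against P1 CKO gave -1.89, -1.88 and -2.00 for *Otx2* (-1.29 with spike scaling) and -0.17, -0.14 and -0.25 for *Arrb2* probe set 1426239_s_at. *Rgs9* probe set 1418691_at at P12 was -0.091 and -0.10 with quantile normalization over the 12 arrays and within each age, -0.068, -0.053 and -0.10 with trimmed mean, median and spike scaling, and -0.23 to 0.41 when single arrays were left out (below zero without P12 CKO replicate 1), and *Txnip* at P1 was 0.022 with spike scaling. The cause of these changes was not tested.

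Over the whole table, the 15 calls at P1 became 4 to 18 when single arrays were left out and 5 to 94 in other settings. The 3990 calls at P12 became 2310 to 6013 and 815 to 9309, and the 1049 for the difference 420 to 3295 and 412 to 2409. Between P12 and P1 the 15636 calls in control retinas became 5195 to 27447 and the 19972 in CKO retinas 3332 to 34115 in settings other than single arrays left out. The share of P12 genotype calls that were higher was 75.7% as deposited and 42.1% to 50.5% after scaling. Signals near the floor of the array limit what can be said of *Arr3* and *Grk1* at P1.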
